A study of Mus musculus with 14 samples.

Results

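The subject here is a group of 10 genes for amino acid transporters of the plasma membrane, *Slc7a1*, *Slc7a3*, *Slc7a5*, *Slc7a11*, *Slc3a2*, *Slc1a4*, *Slc1a5*, *Slc38a1*, *Slc38a2* and *Slc6a9*. They were taken by name, and each of the 10 matched 1 of the 54446 gene identifiers in the files. Their RNA was followed by bulk RNA-seq in mouse embryonic stem (ES) cells of the E14 line kept with Ink128, which blocks the kinase mTOR (mTORi) and moves the cells into a dormant state that resembles embryonic diapause. The 14 libraries fall into 7 groups of 2 replicates. Wild-type cells were taken at 0 h (no inhibitor) and after 24, 72 and 144 h of mTORi. Cells labelled *Tet1/2* DKO, in which both *Tet1* and *Tet2* were targeted for deletion in the same E14 background, were taken at 0, 24 and 72 h. The study describes the DKO as 1 line made by Cas9 deletion, so genotype and line cannot be told apart, and all cells were grown without feeder cells.

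Amino acids enter a cell through carriers that differ in what they move and in what drives them. SLC3A2 (CD98 heavy chain) carries light chains to the membrane, among them SLC7A5 (LAT1), which exchanges large neutral amino acids such as leucine, and SLC7A11 (xCT), which takes up cystine. SLC7A1 and SLC7A3 move arginine and lysine, SLC1A4 and SLC1A5 exchange small neutral amino acids and, for SLC1A5, glutamine, SLC38A1 and SLC38A2 take up neutral amino acids together with sodium, and SLC6A9 takes up glycine. Leucine and arginine inside the cell feed the mTORC1 complex, and many of these genes are known targets of ATF4, a transcription factor that is made when amino acids are scarce and also downstream of mTORC1.

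Values are given on 2 scales. TPM is an abundance per transcript length that sums to 1000000 in every library, and it is called plain TPM here. Spike-in normalized TPM is the same value multiplied by the study's factor for that library, which comes from synthetic ERCC RNAs added to the sample, so that it follows the amount of RNA and not only its make-up. In bulk RNA, fewer cells of a type and less RNA per cell cannot be told apart. A gene was tested with limma on log2(TPM + 1) where its mean was at least 1 spike-in normalized TPM, which held for 18232 genes and for 9 of the 10 transporters. *Slc7a11* was below that level and its values are described without a test. A gene was called where its Benjamini-Hochberg adjusted p was under 0.05.

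*Tet2* was lower in the libraries labelled DKO, at 27.1 to 55.0 spike-in normalized TPM against 129 to 210 in wild type. *Tet1* was not on this scale. It stood at 427 and 349 in the DKO libraries at 0 h against 416 and 403 in wild type, and its difference was not called at any time on that scale. In plain TPM *Tet1* was lower in each DKO library than in the wild-type pair of the same time, with 152 and 147 against 197 and 191 at 0 h, 195 and 176 against 274 and 255 after 24 h and 238 and 248 against 313 and 289 after 72 h. The log2 differences were −0.38, −0.51 and −0.31, of which that after 24 h was called (limma, adjusted p = 0.089, 0.024 and 0.075). The guide RNAs were placed in exons inside the genes, and a TPM per gene does not show which exons its reads came from, so this level is no full check of the deletion. The study screened its clones by PCR and reports western blots with TET1 and TET2 antibodies as the check of the knockouts. The libraries are named here by their label. The 6 markers of ES cells that were listed summed to between 2626 and 6683 spike-in normalized TPM in every library. The sum was 5179 and 5274 in wild type at 0 h, at most 4975 under mTORi and 2626 and 2884 after 144 h. In DKO it was 6105 and 6683 at 0 h and 3322 to 5543 under mTORi. The 6 markers of primitive endoderm, a neighbouring lineage of the early embryo, summed to 94.7 and 215 in wild type after 24 h, against 17.9 and 45.9 at 0 h and 5.73 and 6.0 after 144 h, and none was at 0. In DKO this sum was 20.4 and 68.6 at 0 h and 23.9 and 108 after 24 h. After 72 h it was 20.7 and 56.0. Of the 6 of trophectoderm, the sum in wild type was 51.8 and 111 after 24 h against 41.5 and 45.7 at 0 h. A single marker at 93.8 made up most of the 111, and the highest marker at 0 h stood at 25.2. The 4 markers of neural progenitors summed to 31.0 and 36.7 in wild type at 0 h and to 11.8 to 17.7 under mTORi, and the 4 of fibroblasts to 13.6 and 19.6 and to 4.69 to 9.40. In DKO the neural sum went from 27.1 and 37.9 to 8.74 to 27.6 and the fibroblast sum from 32.7 and 43.9 to 9.78 to 18.3. Like the transporters, the ES cell, neural and fibroblast sums were lower in every mTORi library than at 0 h in the same genotype. The neural sum in DKO was the exception, where the libraries overlapped. Over the genes tested, 37.9% in wild type and 26.1% in DKO lay so in spike-in normalized TPM. The part of any of these cell types in the transporter values was not tested.

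The transporters were lower under mTORi in both genotypes. In spike-in normalized TPM every mTORi library lay below both 0 h libraries for 10 of 10 genes in wild type and for 10 of 10 in the libraries labelled DKO. Over the genes tested, of which 9 are transporters, this held for 37.9% in wild type and 26.1% in DKO. In plain TPM it held for 9 of 10 in wild type, *Slc38a2* being the exception, and for 10 of 10 in DKO, against 15.9% and 17.1% of the genes tested. Together the 10 genes made up 0.0723% and 0.0812% of the plain TPM in wild type at 0 h and 0.0803% and 0.0775% in DKO. Under mTORi this share was between 0.0431% and 0.0592% in the 6 wild-type libraries and between 0.0358% and 0.0427% in the 4 libraries labelled DKO. All mTORi libraries were thus below all 0 h libraries without any spike-in factor. In spike-in normalized TPM the sum went from 1525 and 1715 in wild type at 0 h to 627 and 592 after 144 h, and from 2259 and 1840 in DKO to 1040 and 719 after 72 h.

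**Figure D1:**
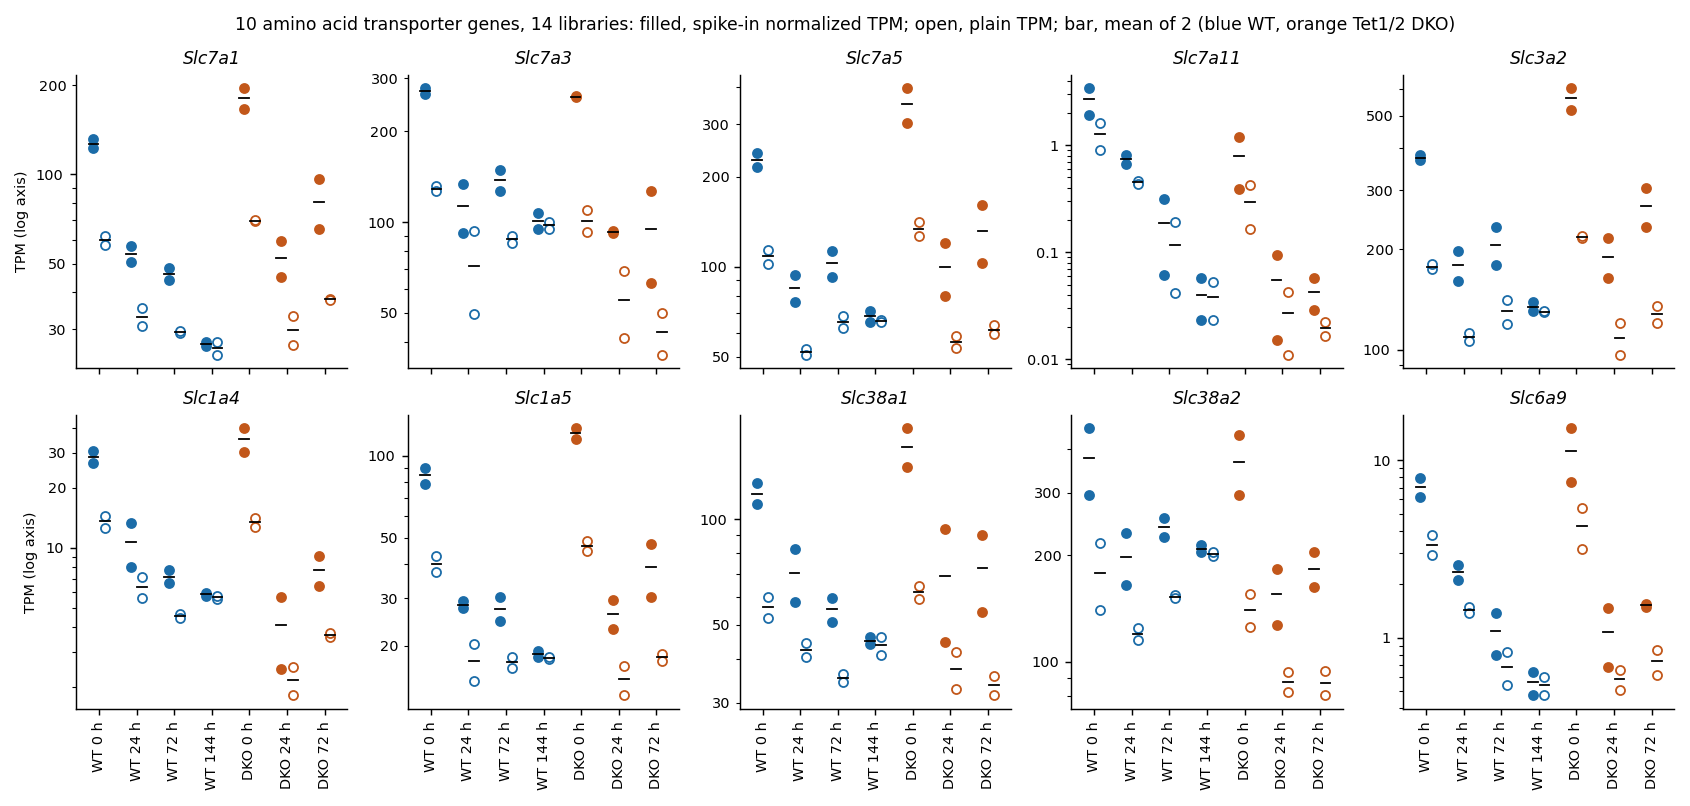
TPM of the 10 transporter genes on a log axis, by group of genotype and hours of mTORi, with a point for each library and a bar for the mean of 2. Filled points are spike-in normalized TPM and open points plain TPM, wild type is blue and the libraries labelled DKO are orange. In every panel the filled points at 0 h lie above the filled points of the later times of that genotype.

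In the fit over all genes, 7 of the 9 transporters tested were called lower in wild type after 24 h, 8 after 72 h and 9 after 144 h, and none higher. Of all genes, 8.73% were called lower after 24 h, 7.6% after 72 h and 50.5% after 144 h. The 9 of 9 after 144 h thus stands beside a background of more than every second gene. In DKO 9 were called lower after 24 h (18.7% of all genes) and 7 after 72 h (2.95%). On the plain TPM scale the counts in wild type were 9, 7 and 6, against 14.1%, 11.4% and 11.7% of all genes, and in DKO they were 9 and 9, against 13.3% and 9.06%. The median log2 fold change of the 9 transporters in wild type was −1.26, −1.15 and −1.73 after 24, 72 and 144 h, where the median of all genes was −0.33, −0.33 and −0.83. In DKO it was −1.78 and −1.42 against −0.49 and −0.12. In plain TPM the median of all genes lay between −0.01 and 0.14 in these 5 comparisons, and the transporter medians were −0.84, −0.72 and −0.70 in wild type and −1.20 and −1.11 in DKO. Without 1 library of the comparison, an arm has 1 sample whose spread is taken from the other groups, and a smaller share of all genes was called lower than with all libraries, except in DKO after 24 h without replicate 1 of that time (47.7%). The wild-type count after 24 h was 1 without replicate 2 of 0 h, 2 without replicate 1 of 0 h or replicate 1 of 24 h, and 5 without replicate 2 of 24 h, where 1.46% to 5.89% of all genes were called lower. After 72 h it was 0 without replicate 2 of 72 h, 1 without replicate 2 of 0 h, and 4 without either of the others, with 0.318% to 2.44% of all genes. For DKO after 72 h it was 1 without replicate 2 of 72 h, 4 without either library of 0 h and 8 without replicate 1 of 72 h, with 0.362% to 2.01% of all genes. The counts were 8 to 9 for wild type after 144 h (21.5% to 34.9% of all genes) and 7 to 9 for DKO after 24 h (4.17% to 47.7%). With the replicate number as a block within each genotype, in which the libraries of a genotype are paired, 9 of 9 were called lower at every time in both genotypes, and the share of all genes called lower rose with it, to 25.7%, 25.4% and 66.3% in wild type and 38.1% and 13.2% in DKO. In plain TPM with that block, a fit added after seeing the data, 9, 7 and 7 of 9 were called lower in wild type (17.7%, 15.2% and 15.6% of all genes) and 9 and 9 in DKO (16.6% and 12.3%).

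**Figure D2:**
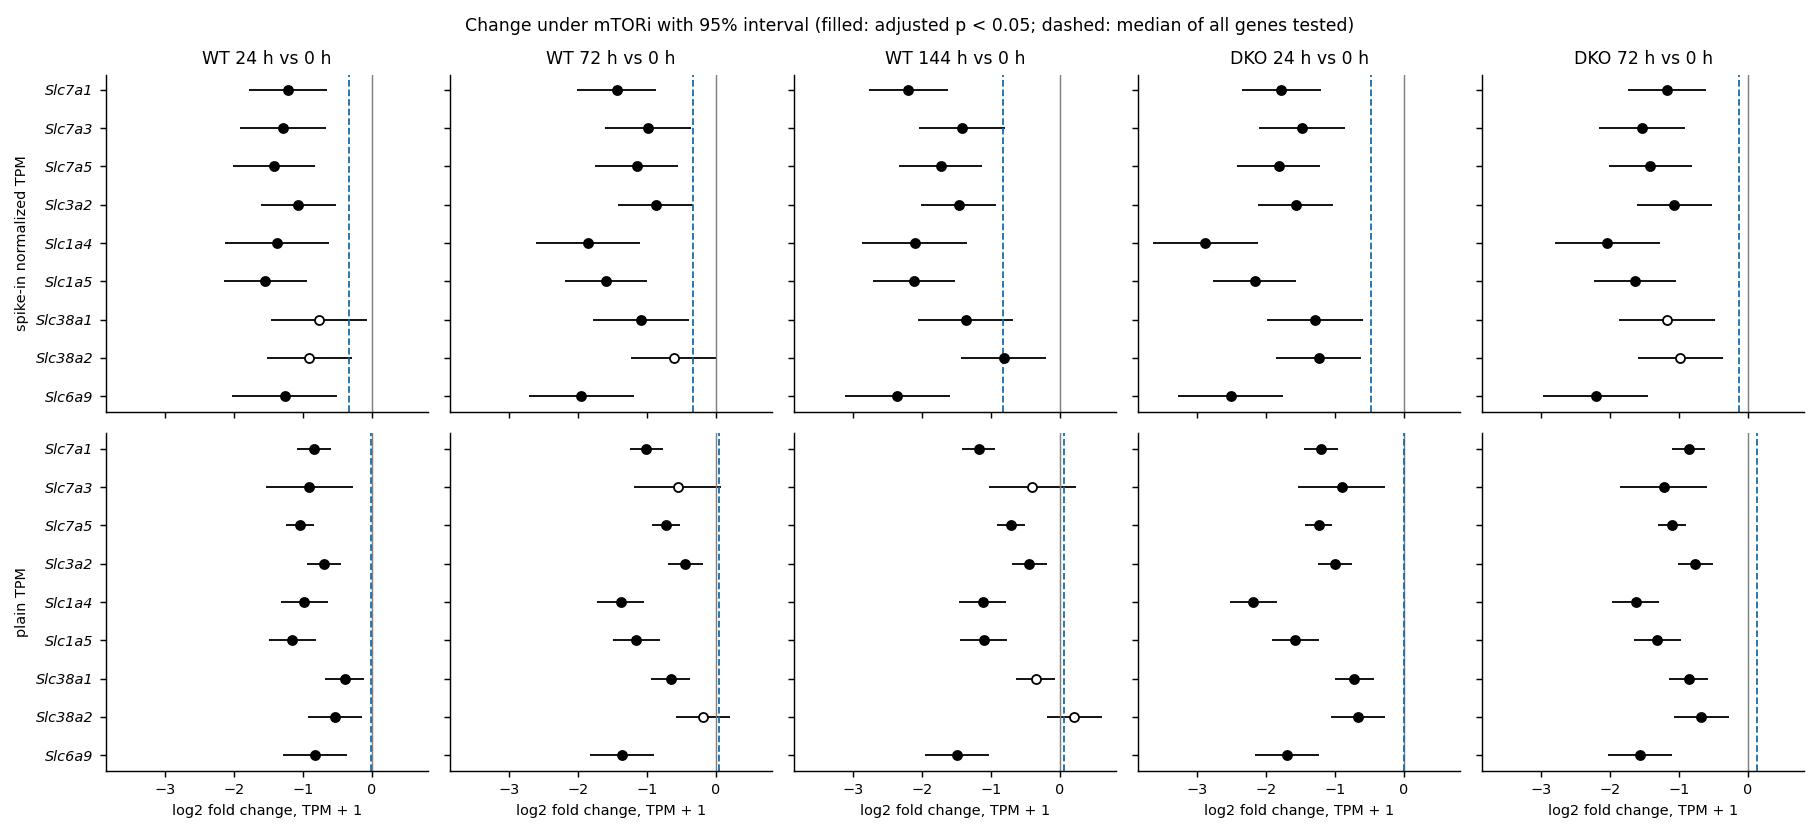
Log2 fold change of TPM + 1 against 0 h of the same genotype for the 9 transporters tested, with 95% intervals from limma, in spike-in normalized TPM (top) and plain TPM (bottom). Filled points have an adjusted p under 0.05 and the dashed line is the median of all genes tested, which lies at −0.83 for wild type after 144 h in the top row and at 0.05 in the bottom row.

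The heavy chain *Slc3a2* (ENSMUSG00000010095.13, chr19:8706882-8723369 on the minus strand, mm10, the build of all positions here) was the most abundant of the 10 genes in all DKO libraries and in replicate 1 of wild type at 0 h, and *Slc38a2* in the others. *Slc3a2* stood at 368 and 381 spike-in normalized TPM in wild type at 0 h, 160 and 198 after 24 h, 233 and 179 after 72 h and 139 and 130 after 144 h. The DKO values were 605 and 520 at 0 h, 216 and 163 after 24 h and 304 and 233 after 72 h. The 0 h libraries were the highest of each genotype and the DKO pair lay above the wild-type pair at that time. In wild type *Slc3a2* fell by 1.47 ± 0.26 (SE) on the log2 scale after 144 h (limma, adjusted p = 0.00042). On the plain TPM scale the values after 144 h were 130 and 130 against 174 and 180 at 0 h, a log2 fold change of −0.44 ± 0.11 (limma, adjusted p = 0.016).

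*Slc7a5* (ENSMUSG00000040010.10, chr8:121881150-121907694, minus strand), the leucine-carrying light chain, followed its heavy chain. Its spike-in normalized TPM was 216 and 241 in wild type at 0 h, 75.9 and 94.1 after 24 h, 113 and 92.6 after 72 h and 70.9 and 65.5 after 144 h. In DKO it was 396 and 302 at 0 h, 120 and 79.5 after 24 h and 161 and 103 after 72 h. The mean was thus at 29.9% of the 0 h mean in wild type after 144 h and at 28.5% in DKO after 24 h, where plain TPM gave 60.9% and 41.9%. The log2 fold change was −1.73 ± 0.29 after 144 h in wild type and −1.81 ± 0.29 after 24 h in DKO in spike-in normalized TPM (SE; limma, adjusted p = 0.00028 and 0.00051), and −0.70 ± 0.09 and −1.24 ± 0.09 in plain TPM (adjusted p = 0.00062 and 3.9e-05). The plain TPM after 24 h, 52.9 and 50.7, was the lowest of the wild-type course, and 72 and 144 h stood at 62.2 to 68.4. An annotated gene on the opposite strand, *Gm20388*, overlaps *Slc7a5*, and whether the quantification used strand is not given in the sources used here.

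*Slc7a11* (ENSMUSG00000027737.10, chr3:49892526-50443614, minus strand), the cystine-carrying light chain, was scarce throughout. In wild type it went from 1.92 and 3.44 spike-in normalized TPM at 0 h to 0.667 and 0.806 after 24 h, 0.316 and 0.0615 after 72 h and 0.0571 and 0.0233 after 144 h. The DKO libraries had 1.21 and 0.392 at 0 h, 0.0954 and 0.0150 after 24 h and 0.0570 and 0.0288 after 72 h. The mean after 144 h was 1.5% of that at 0 h in spike-in normalized TPM and 3.02% in plain TPM, the lowest of the 10 genes on both scales. The DKO libraries at 0 h lay below both wild-type libraries. TPM keep no read counts, so the counting error of values this low is not known, and 5 annotated genes overlap this locus, 2 of them on its own strand.

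**Figure D3:**
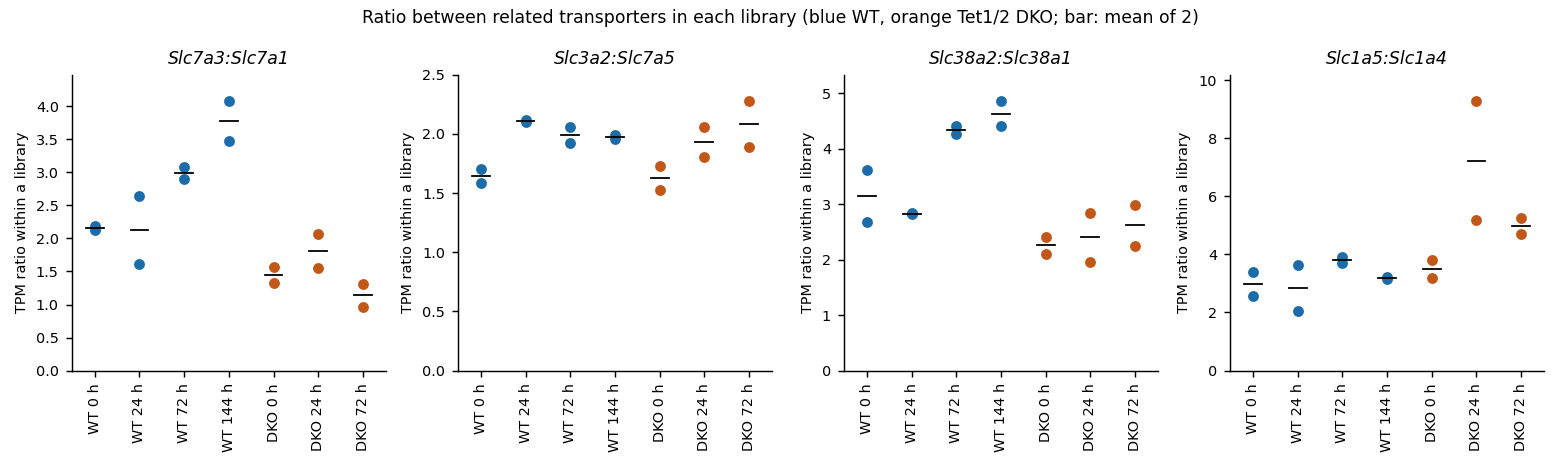
Ratio of plain TPM between 2 related transporters in the same library, by group, with a point for each library and a bar for the mean of 2. *Slc3a2* to *Slc7a5* stays between 1.53 and 2.28 over all 14 libraries, and *Slc7a3* to *Slc7a1* reaches 4.08 and 3.48 in wild type after 144 h against 1.32 and 0.964 in DKO after 72 h.

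Ratios within a library need no factor, and the pairs shown in the plot of ratios were chosen after their values were seen. The ratio of *Slc3a2* to *Slc7a5* was 1.70 and 1.58 in wild type at 0 h and 1.93 to 2.11 under mTORi. In DKO it was 1.53 and 1.73 at 0 h and 1.81 to 2.28 under mTORi. In both genotypes the mTORi libraries lay above the 0 h libraries, by less than 1 unit of the ratio.

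Of the carriers of arginine and lysine, *Slc7a1* (ENSMUSG00000041313.14, chr5:148327410-148399904, minus strand) had the larger decrease in wild type after 72 and 144 h. Its spike-in normalized TPM was 131 and 122 at 0 h, 50.6 and 57.1 after 24 h, 48.2 and 44.0 after 72 h and 26.4 and 27.2 after 144 h. The groups after 72 and 144 h did not overlap with each other or with 24 h. Levels in DKO were 196 and 166 at 0 h, 59.5 and 45.2 after 24 h and 96.4 and 65.2 after 72 h, so that the libraries of 72 h lay above those of 24 h. The log2 fold change of *Slc7a1* was −2.20 ± 0.27 in wild type after 144 h and −1.18 ± 0.27 in DKO after 72 h in spike-in normalized TPM (SE; limma, adjusted p = 2.4e-05 and 0.022). In plain TPM it was −1.18 ± 0.11 and −0.86 ± 0.11 (adjusted p = 0.00014 and 0.00085), and the mean of wild type after 144 h was 43.2% of that at 0 h, against 21.1% in spike-in normalized TPM.

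*Slc7a3* (ENSMUSG00000031297.14, chrX:101079210-101086020, minus strand) started at 279 and 267 spike-in normalized TPM in wild type and at 260 and 261 in DKO. In wild type it was 134 and 92.2 after 24 h, 148 and 127 after 72 h and 108 and 94.7 after 144 h, and these groups overlap in part. In DKO it was 92.3 and 93.5 after 24 h and 127 and 62.8 after 72 h. In plain TPM the wild-type libraries after 144 h stood at 100 and 94.7, above the 50.1 and 36.4 of DKO after 72 h, and the fold change after 144 h was −0.40 ± 0.28 (SE; limma, adjusted p = 0.32), which is not called. In DKO after 72 h it was −1.22 ± 0.28 (limma, adjusted p = 0.012). The ratio of *Slc7a3* to *Slc7a1* was 2.13 and 2.18 in wild type at 0 h, 2.65 and 1.61 after 24 h, 3.08 and 2.90 after 72 h and 4.08 and 3.48 after 144 h. DKO libraries stood at 1.33 and 1.57 at 0 h, 1.55 and 2.07 after 24 h and 1.32 and 0.964 after 72 h. At 0 and after 72 h all wild-type libraries lay above all DKO libraries in this ratio, and after 24 h the genotypes overlapped.

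The exchangers of small neutral amino acids were at 20.5% (*Slc1a4*) and 22.1% (*Slc1a5*) of the 0 h mean in wild type after 144 h in spike-in normalized TPM, and at 41.8% and 45.0% in plain TPM. *Slc1a5* (ENSMUSG00000001918.17, chr7:16781340-16798274, plus strand) went from 90.4 and 79.0 spike-in normalized TPM in wild type at 0 h to 29.2 and 27.5 after 24 h, 30.2 and 24.7 after 72 h and 19.2 and 18.3 after 144 h. In DKO it went from 126 and 116 to 29.5 and 23.0 after 24 h and 47.5 and 30.3 after 72 h. It was called lower in all 5 comparisons with 0 h on both scales, with log2 fold changes of −1.54 to −2.17 in spike-in normalized and −1.11 to −1.58 in plain TPM. On the plain TPM scale the wild-type libraries under mTORi stayed within 14.8 and 20.3 at all 3 times.

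*Slc1a4* (ENSMUSG00000020142.12, chr11:20302180-20332713, minus strand) stood at 26.6 and 30.7 spike-in normalized TPM in wild type at 0 h, 8.05 and 13.3 after 24 h, 7.74 and 6.64 after 72 h and 5.96 and 5.76 after 144 h. In DKO it was 39.6 and 30.3 at 0 h, 5.69 and 2.48 after 24 h and 9.05 and 6.46 after 72 h. The DKO libraries after 24 h were the lowest group of all 7. There *Slc1a4* fell by 2.89 ± 0.36 on the log2 scale (SE; limma, adjusted p = 9.1e-05), against a log2 fold change of −1.38 ± 0.36 in wild type (adjusted p = 0.021). In plain TPM these were −2.18 ± 0.15 and −0.98 ± 0.15 (adjusted p = 3.3e-05 and 0.0012). The ratio of *Slc1a5* to *Slc1a4* was 5.18 and 9.27 in DKO after 24 h and 5.25 and 4.70 after 72 h, above the 2.07 to 3.90 of the 8 wild-type libraries and the 3.18 and 3.81 of DKO at 0 h.

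ATF4 binds with C/EBP partners to elements that can be written TGATGNAA, and the promoters of the transporters were searched for these 8 letters on both strands. RefSeq windows of the GRCm38.p6 build, with 250 bases before and 50 after a start site, were present for 6 of the 10 genes (*Slc7a1*, *Slc7a11*, *Slc3a2*, *Slc1a4*, *Slc38a2* and *Slc6a9*), and 2 of these 6 held a match, *Slc7a11* with 2 and *Slc1a4* with 1. Of the 27025 genes with a window 4.51% had a match in at least 1 of their windows, and the 6 genes have 9 windows in all. Over single windows, 0.0700% of 32851 held at least 2 matches. The stretches around the matches are shown as the only ones among these windows, with the matched letters in capitals. Both genes lie on the minus strand, so the sequences are read 5′ to 3′ on that strand.
*Slc7a11* (chr3:50443614-50443728, upstream of the start site): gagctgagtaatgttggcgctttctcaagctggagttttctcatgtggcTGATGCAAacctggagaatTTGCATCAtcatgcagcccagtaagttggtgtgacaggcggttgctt
*Slc1a4* (chr11:20332703-20332732, across the start site): agcgtgcctcctgcgTTGCATCAtctccag
In *Slc7a11* the matches lie at −66 to −59 and, on the other strand, at −47 to −40 from the start site, and in *Slc1a4* at −4 to 4. A match of these letters does not show that a factor was bound.

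In each of the 5 comparisons with 0 h the smallest fitted decrease of the 9 was that of *Slc38a1* or *Slc38a2*. It was that of *Slc38a1* in wild type after 24 h and that of *Slc38a2* in the others. *Slc38a1* (ENSMUSG00000023169.15, chr15:96571418-96642913, minus strand) went from 110 and 127 spike-in normalized TPM in wild type at 0 h to 58.2 and 82.0 after 24 h, 59.7 and 51.1 after 72 h and 44.0 and 46.2 after 144 h. In DKO it went from 182 and 141 to 93.5 and 44.6 after 24 h and 90.4 and 54.4 after 72 h. The fold change after 24 h in wild type was −0.77 ± 0.33 (SE; limma, adjusted p = 0.14). With the replicate number as a block within each genotype *Slc38a1* was called lower there. In plain TPM it was called in all comparisons with 0 h but 144 h, where it was −0.35 ± 0.13 (adjusted p = 0.062).

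*Slc38a2*, its neighbour (ENSMUSG00000022462.7, chr15:96687392-96699730, minus strand), stood at 296 and 457 spike-in normalized TPM in wild type at 0 h, 165 and 231 after 24 h, 255 and 225 after 72 h and 213 and 204 after 144 h. In the DKO libraries it was 438 and 297 at 0 h, 183 and 127 after 24 h and 204 and 162 after 72 h. The 0 h replicates differed from each other by more than any later wild-type library differed from the lower of them. It was called lower in wild type after 144 h (−0.82 ± 0.30, SE; limma, adjusted p = 0.028) and in DKO after 24 h (−1.24 ± 0.30, adjusted p = 0.0076), and in neither genotype after 72 h. In wild type after 24 h it was not called (−0.91 ± 0.30; limma, adjusted p = 0.055). In plain TPM it was called lower after 24 h in wild type (−0.54 ± 0.18; limma, adjusted p = 0.044) and in DKO (−0.67 ± 0.18, adjusted p = 0.021). It was also called lower in DKO after 72 h on that scale (−0.68 ± 0.18; limma, adjusted p = 0.020). With the replicate number as a block within each genotype it was called lower in both genotypes after 72 h in spike-in normalized TPM. In plain TPM the 144 h libraries were at 199 and 204, between the 140 and 216 of 0 h, and the fold change was 0.21 ± 0.18 (adjusted p = 0.41), so the direction turned with the scale. Without replicate 2 of wild type at 0 h it was called higher after 144 h in plain TPM (0.52 ± 0.15, adjusted p = 0.040). The ratio of *Slc38a2* to *Slc38a1* was 4.27 to 4.85 in wild type after 72 and 144 h, above the 2.68 and 3.61 of 0 h and the 1.96 to 2.98 of all 6 DKO libraries. In wild type after 24 h it was 2.83 and 2.82, within the range of 0 h.

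*Slc6a9* (ENSMUSG00000028542.17, chr4:117834506-117875198, plus strand), the glycine carrier, was at 6.16 and 7.97 spike-in normalized TPM in wild type at 0 h, 2.13 and 2.56 after 24 h, 1.37 and 0.801 after 72 h and 0.645 and 0.474 after 144 h. In DKO it was 15.1 and 7.48 at 0 h, 1.47 and 0.686 after 24 h and 1.56 and 1.48 after 72 h. After 144 h its mean was 7.92% of that at 0 h, and in DKO after 24 h it was 9.55%, where plain TPM gave 16.1% and 13.7%. Its log2 fold change was −2.36 ± 0.37 in wild type after 144 h and −2.52 ± 0.37 in DKO after 24 h in spike-in normalized TPM (SE; limma, adjusted p = 0.00015 and 0.00027), and −1.49 ± 0.21 and −1.70 ± 0.21 in plain TPM (adjusted p = 0.00092 and 0.00044). The added 1 in log2(TPM + 1) understates changes at such levels. *B4galt2*, *Ccdc24* and *Gm17114* overlap the gene on the opposite strand.

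Placed in order of the group means in spike-in normalized TPM, DKO at 0 h was the highest of the 7 groups for *Slc7a1*, *Slc7a5*, *Slc3a2*, *Slc1a4*, *Slc1a5*, *Slc38a1* and *Slc6a9*, and wild type at 0 h for *Slc7a3*, *Slc7a11* and *Slc38a2*. Wild type after 144 h was the lowest for all but *Slc7a3*, *Slc1a4* and *Slc38a2*, for which DKO after 24 h was. Of the 6 pairs of neighbours in each order, the libraries overlapped in 2 for *Slc7a1*, *Slc3a2*, *Slc1a5* and *Slc6a9*, in 3 for *Slc7a5*, *Slc1a4* and *Slc38a1*, and in 4 for *Slc7a3*, *Slc7a11* and *Slc38a2*. In *Slc7a1*, for example, DKO after 24 h overlapped both with wild type after 24 h and with wild type after 72 h, and the other neighbours were apart. In plain TPM wild type after 144 h was the lowest group for *Slc7a1* and *Slc6a9* alone, and for *Slc38a2* it was the highest.

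No transporter was called between the genotypes in spike-in normalized TPM. At 0, 24 and 72 h the count was 0 of 9 by limma in each case, and 0.0439%, 0.0439% and 0.329% of all genes were called. At an unadjusted p under 0.05 it was 1 of 9 each time, where 8.35%, 4.14% and 23.0% of all genes were. The fitted DKO minus wild-type difference at 0 h was 0.60 (95% interval ± 0.60) for *Slc7a5*, 0.58 ± 0.54 for *Slc3a2* and 0.51 ± 0.57 for *Slc7a1*, and −0.07 ± 0.62 for *Slc7a3*. These intervals reach from near 0 to about 1 on the log2 scale for the first 3, so the data leave room for differences of that size. The median of the 9 was 0.51, where all genes had a median of 0.29. Marker sums also differed between the genotypes. At 0 h the ES cell markers summed to 6105 and 6683 spike-in normalized TPM in DKO against 5179 and 5274 in wild type, and the fibroblast markers to 32.7 and 43.9 against 13.6 and 19.6, with a single marker at 40.5 and 16.0 making up most of the higher sum of each genotype. The fibroblast sums were 9.78 and 12.7 against 4.69 and 6.19 after 24 h and 16.0 and 18.3 against 5.93 and 9.40 after 72 h. After 72 h the sums of trophectoderm (32.3 and 37.9 against 24.7 and 29.7), neural (19.7 and 27.6 against 16.4 and 17.7) and mesendoderm markers (3.86 and 6.51 against 2.02 and 3.12) were higher in DKO as well. Their part in the transporter differences was not tested. After 72 h *Slc7a1* was at 0.77 ± 0.57 and *Slc7a3* at −0.62 ± 0.62, with a median of all genes of 0.49.

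In plain TPM 0, 1 and 1 of 9 were called between the genotypes at 0, 24 and 72 h, against 0.598%, 1.37% and 4.01% of all genes. At an unadjusted p under 0.05 there were 2, 3 and 3, where 13.9%, 14.8% and 21.2% of all genes were. The gene called after 24 h was *Slc1a4*, at 2.55 and 1.83 plain TPM in DKO and 5.61 and 7.17 in wild type, a difference of −1.21 ± 0.15 (SE; limma, adjusted p = 0.0080). Without replicate 2 of wild type its adjusted p was 0.061 and without replicate 2 of DKO 0.051, with differences of −1.06 and −1.05. In spike-in normalized TPM the difference was −1.24 ± 0.36 (adjusted p = 0.44). The gene called after 72 h was *Slc38a2*, at 80.4 and 93.9 plain TPM in DKO against 154 and 151 in wild type, a difference of −0.81 ± 0.18 (adjusted p = 0.037). Leaving out any 1 of its 4 libraries took it to an adjusted p of 0.12 to 0.22. *Slc7a3* after 72 h was also apart in its libraries, with 50.1 and 36.4 in DKO against 89.9 and 85.5 in wild type, and its difference of −1.02 ± 0.28 was not called (adjusted p = 0.073).

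**Figure D4:**
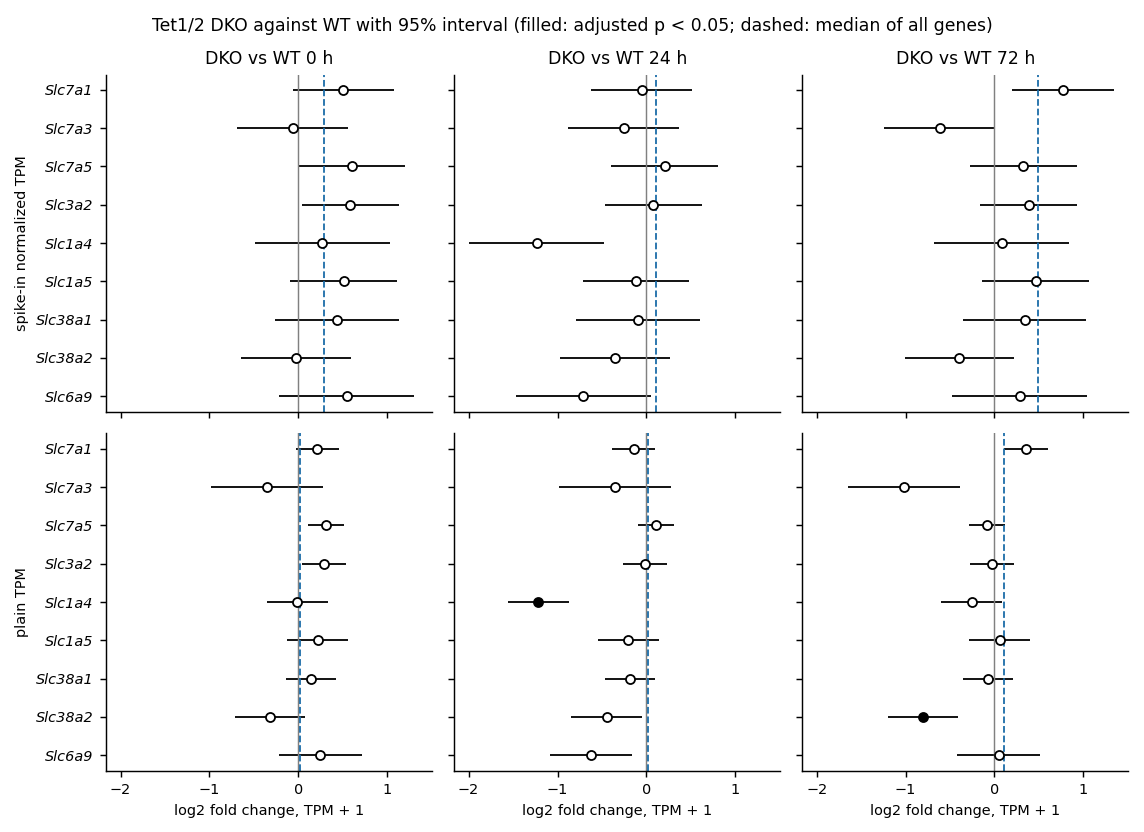
Log2 difference of TPM + 1 between the libraries labelled DKO and wild type at 0, 24 and 72 h for the 9 transporters tested, with 95% intervals from limma, in spike-in normalized TPM (top) and plain TPM (bottom). Filled points have an adjusted p under 0.05, which only *Slc1a4* after 24 h and *Slc38a2* after 72 h reach, both in plain TPM, and the dashed line is the median of all genes tested.

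The response to mTORi was also compared between the genotypes, as the change from 0 h in DKO minus that in wild type. By limma 0 of 9 were called after 24 h and 0 of 9 after 72 h, and 0.00548% and 0% of all genes were called. At an unadjusted p under 0.05 there were 2 and 0, beside 1.22% and 0.993% of all genes. On the plain TPM scale the counts were 0 and 0 of 9, and 0% of all genes were called at both times, with 3 and 1 at an unadjusted p under 0.05, beside 3.87% and 3.71% of all genes. *Slc1a4* had the largest difference after 24 h, −1.51 with a 95% interval of ± 1.07 in spike-in normalized TPM (adjusted p = 1) and −1.20 ± 0.48 in plain TPM (limma, adjusted p = 0.37). *Slc6a9* followed with −1.25 ± 1.08 and −0.87 ± 0.66. Both had lower DKO values relative to 0 h, and neither difference passed the test. After 72 h the differences of the 9 lay between −0.55 (*Slc7a3*) and 0.27 (*Slc7a1*) in spike-in normalized TPM, with intervals of ± 0.77 to ± 1.08.

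Replicates of both genotypes changed places between the scales, which differ only by the factor of each library. That factor was 1.43 and 1.85 in wild type after 24 h and 1.07 and 1 after 144 h. In DKO it was 2.24 and 1.36 after 24 h and 2.53 and 1.73 after 72 h. In wild type the summed transporters after 24 h were 684 and 798 in spike-in normalized TPM and 477 and 431 in plain TPM, and after 144 h 627 and 592, and 586 and 592. In DKO the sums after 24 h were 801 and 579 in spike-in normalized TPM and 358 and 427 in plain TPM, so the higher replicate on 1 scale was the lower on the other. After 72 h the sums were 1040 and 719, and 411 and 416. For *Slc7a1* after 72 h the replicates were 96.4 and 65.2 spike-in normalized and 38.0 and 37.7 plain.

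A list of 39 other genes for amino acid transporters gives the wider setting, and 23 of them were tested. In wild type after 144 h 11 of the 23 were called lower (50.5% of all genes) and 0 higher in spike-in normalized TPM, with a median of −0.78 beside −0.83 for all genes. In plain TPM 2 were lower and 3 higher, where 11.7% of all genes were lower and 15.6% higher, with a median of 0.11 beside 0.05. After 24 h in spike-in normalized TPM 2 were lower (8.73% of all genes) and 1 higher (1.25%), and after 72 h 1 was lower (7.6%). In DKO 4 were lower after 24 h (18.7%) and 1 after 72 h (2.95%). As shares of the 23, the counts called lower lie near those of all genes. The largest falls after 144 h were those of *Slc38a4*, a sodium-coupled carrier, with −1.61 ± 0.31 (SE; limma, adjusted p = 0.00071), *Slc6a6*, the taurine carrier, with −1.41 ± 0.30 (adjusted p = 0.0013), and *Slc38a7*, a lysosomal carrier, with −1.24 ± 0.34 (adjusted p = 0.0069). *Slc6a6* was also called lower at every earlier time and in both genotypes, on both scales. *Slc38a7* was not called in plain TPM (−0.25, adjusted p = 0.19). At the other end stood *Slc38a3* with 0.07, *Slc7a4* with −0.07 and *Slc7a2*, another carrier of arginine, with −0.08, none of them called, where plain TPM gave 0.70 (called), 0.33 and 0.47. By place in the cell, 6 of the 14 of the plasma membrane and 4 of the 7 of lysosomes or endosomes were called lower in wild type after 144 h, around the 50.5% of all genes, and in plain TPM 2 of the 14 and 0 of the 7 were, where 11.7% of all genes were.

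Between the genotypes after 72 h 0 of these 23 were called by limma in spike-in normalized TPM, where 0.329% of all genes were. The highest fitted differences were those of *Slc36a4* with 1.20, *Slc7a6*, a light chain that also pairs with SLC3A2, with 1.16 and *Slc7a2* with 1.08, and the lowest those of *Slc6a15* with −0.13, *Slc1a3* with −0.08 and *Slc6a6* with 0.14, which was −0.27 in plain TPM. In plain TPM 2 of the 23 were called higher in DKO, where 3.17% of all genes were, *Slc7a6* with 0.74 ± 0.16 (adjusted p = 0.033) and *Slc36a4*, a lysosomal carrier, with 0.74 ± 0.16 (adjusted p = 0.034).

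Of 10 genes of the amino acid response and of mTOR, 6 were called lower in wild type after 144 h, where 50.5% of all genes were, and 4 in DKO after 72 h, where 2.95% were, and none higher. The first of these counts is near its background. In plain TPM 5 were lower and 2 higher in wild type after 144 h, against 11.7% and 15.6% of all genes, and 4 lower and 1 higher in DKO after 72 h, against 9.06% and 17.2%. *Atf4* was at 435 and 391 spike-in normalized TPM in wild type at 0 h, 159 and 211 after 24 h, 177 and 147 after 72 h and 121 and 103 after 144 h. DKO gave 713 and 609 at 0 h, 183 and 118 after 24 h and 210 and 153 after 72 h. All mTORi libraries lay below the 0 h libraries of their genotype, and *Atf4* was called lower in all 5 comparisons on both scales (−1.17 to −2.16 spike-in normalized, −0.79 to −1.58 plain). *Trib3*, a target of ATF4, was also called lower in all 5, from 42.8 and 52.1 to 4.13 and 3.33 in wild type after 144 h and from 78.9 and 54.9 to 4.15 and 4.90 in DKO after 72 h.

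*Ddit3*, a stress transcription factor, changed by −1.98 in wild type after 144 h and −1.51 in DKO after 72 h, and *Sesn2*, a leucine sensor upstream of mTORC1, by −2.12 and −1.35, all of them called lower. *Asns*, the asparagine synthetase, was called lower in wild type after 144 h (−1.49, adjusted p = 0.00038) and had −0.68 in DKO after 72 h (limma, adjusted p = 0.15), and *Cebpb* had −1.10 (called, but not in plain TPM) and −1.17 (not called). *Cebpg*, *Eif2ak4*, which codes for the amino acid sensor GCN2, *Myc* and *Mtor* were called in neither, with −0.78, −0.45, −0.24 and −0.38 in wild type after 144 h and −0.25, −0.08, 0.37 and 0.32 in DKO after 72 h. In plain TPM the values of these 4 after 144 h were positive (0.20, 0.50, 0.78 and 0.62), and *Eif2ak4* and *Mtor* were called higher. *Mtor* was also called higher in DKO after 72 h on that scale (0.62; limma, adjusted p = 0.0011).

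**Figure D5:**
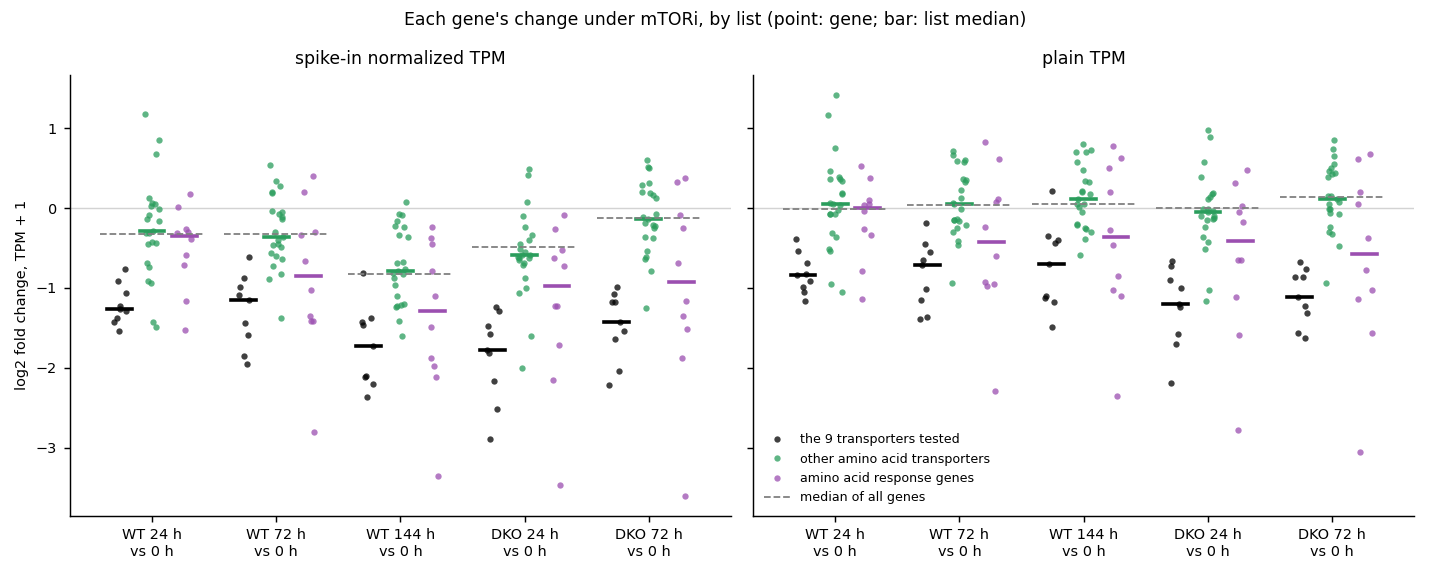
Log2 fold change of TPM + 1 under mTORi for each of the 9 transporters tested (black), 23 other amino acid transporters (green) and 10 genes of the amino acid response (purple), with list medians as bars and the median of all genes dashed, in spike-in normalized TPM (left) and plain TPM (right). After 144 h the black median is −1.73 and the green −0.78 on the left, and −0.70 and 0.11 on the right.

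Across the 14 libraries the 10 transporters were correlated with each other in log2(plain TPM + 1). Over the 45 pairs Pearson's r ran from 0.09 (*Slc38a2* and *Slc7a1*) to 0.97 (*Slc3a2* and *Slc7a5*), with a median of 0.74. The libraries share the step from 0 h to mTORi, so these values describe a common course and carry no test. The genes outside the group with the most similar pattern were *Pycrl* (0.97) and *Cyth4* (0.97) for *Slc7a1*, *Accsl* (0.94) and *Rcor2* (0.92) for *Slc7a3*, *Hist1h2bp* (0.97) and *Calca* (0.97) for *Slc7a5*, and *Hdac1* (0.97) and *Ddx39* (0.97) for *Slc3a2*. For *Slc7a11* they were *Bcl2l15* and *Nexn*, with 0.92 each. For *Slc1a4* they were *Herpud1* (0.97) and *Chac1* (0.96), and for *Slc1a5* *Eif2ak1* (0.98) and *Gcsh* (0.98). *Slc38a1* was closest to *Aldh9a1* (0.95) and *Recql4* (0.93), and *Slc38a2* to *Dnmt3b* (0.97) and *Bend3* (0.94). *Slc6a9* was closest to *Cars* and *Nars*, which code for the cysteinyl- and asparaginyl-tRNA synthetases, with 0.97 each.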

How the data were processed

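Total RNA of 14 libraries was spiked with ERCC RNAs, depleted of ribosomal RNA and sequenced paired-end. The submitters' processing notes name cutadapt 2.4, STAR 2.7.3a and StringTie 2.0 on mm10. The deposited values are TPM per gene computed by the authors, with no ERCC entry, and they sum to 1000000 in each library over 54446 gene identifiers. A TPM carries no depth and read counts were not used here, so no counting error is given. Entries of the same identifier were summed. Each library was multiplied by the median ratio of the study's spike-in normalized table, held in part, to the deposited TPM (spike-in normalized TPM).

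Values were fitted as log2(TPM + 1) over 7 groups with limma 3.58.1 (R 4.3.3; empirical Bayes with a mean-variance trend) for the 18232 genes whose spike-in normalized TPM averaged 1 or more, and adjusted by Benjamini-Hochberg within each of 10 comparisons. The authors' DESeq2 test needs counts. The replicates are called biological replicates whose time points were processed in parallel. Replicate differences correlated across genes at over 0.1 in 3 of 3 pairs of groups within DKO and 5 of 6 within wild type (0.0622 to 0.398), and in 1 of 12 between the genotypes (−0.501 to 0.116). Equal numbers therefore went with like differences within a genotype only. Whether replicates pair between the genotypes under other numbers was not tested. A block within each genotype uses up the replicate spread needed to test DKO against wild type.

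The transporters and the gene lists were chosen with earlier results of these data known. The text names all 10 transporters, the 3 highest and 3 lowest fitted changes among the other transporters in wild type at 144 h and in DKO against wild type at 72 h, all 10 response genes, for each transporter the 2 genes of highest Pearson r over 14 libraries, and *Tet1* and *Tet2*. Ratios were chosen after their values were seen. Marker lists of ES cells, primitive endoderm, trophectoderm, neural progenitors, mesendoderm and fibroblasts were summed. The mesendoderm markers summed to 1.87 to 6.51 spike-in normalized TPM in every library.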

Additional observations from a re-analysis of the deposited data

How the results depend on the processing

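The counts of transporters called were recomputed in plain TPM, with median-centred values, a pseudocount of 0.1, no filter, the replicate block within each genotype or across all libraries, no trend, the groups of the comparison alone, and without each library. With no filter, where all 10 transporters were tested among 38890 genes, the wild-type counts were 4 at 24 h (2.34% of all genes lower) and 5 at 72 h (1.64%), and with no trend 5 of 9 at 72 h (5.57%). Between the genotypes 1 was called at 24 h and 1 at 72 h in plain TPM, and as many with median-centred values. With the replicate block within each genotype 9 were called in each comparison with 0 h, while the share of all genes called lower rose to between 13.2% and 66.3%. In plain TPM with that block, which was added after seeing the data, the counts were 9, 7 and 7 in wild type and 9 and 9 in DKO, with 12.3% to 17.7% of all genes. The block changed no call of the responses, 0 each.

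Without 1 library, where the lone sample is assumed to vary like the other groups, the counts ranged from 1 to 5 (wild type 24 h), 0 to 4 (72 h), 8 to 9 (144 h), 7 to 9 (DKO 24 h) and 1 to 8 (DKO 72 h), and stayed at 0 for DKO against wild type and for the responses. In plain TPM, also added later, they ranged from 5 to 8, 6 to 7, 5 to 6, 7 to 9 and 8 to 8, with 8.19% to 12%, 5.36% to 8.46%, 5.1% to 8.84%, 7.61% to 10.7% and 3.58% to 7.05% of all genes called lower. The 6 at 144 h, without replicate 2 of wild type at 0 h, were 5 lower and *Slc38a2* higher. In plain TPM the range for DKO against wild type was 0 to 0 at 0 h, 0 to 1 at 24 h and 0 to 0 at 72 h, with at most 0.0658%, 0.285% and 0.335% of all genes called.

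Signs turned as follows, first in plain TPM and then median-centred, and the cause was not tested. In wild type at 144 h *Slc38a2* turned to 0.21 and 0.020, *Slc7a2* to 0.47 and 0.75, *Slc7a4* to 0.33 and 0.76, *Eif2ak4* to 0.50 and 0.38, *Cebpg* to 0.20 and 0.052, *Myc* to 0.78 and 0.60 and *Mtor* to 0.62 and 0.45. In DKO at 72 h *Eif2ak4* turned to 0.20 and 0.013, and *Cebpg* to 0.046 in plain TPM. For DKO against wild type at 72 h *Slc7a5* turned to −0.085 and −0.18, *Slc3a2* to −0.029 and −0.12, *Slc1a4* to −0.26 and −0.42, *Slc38a1* to −0.068 and −0.17 and *Slc6a6* to −0.27 and −0.37, and when median-centred *Slc1a5* to −0.044 and *Slc6a9* to −0.22. At 24 h *Slc3a2* turned to −0.016 and −0.042, at 0 h *Slc1a4* to −0.013 and −0.041, and the *Slc7a3* response at 24 h to 0.0065 in plain TPM.

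Without 1 library differences near 0 also changed sign. For DKO against wild type at 24 h the ranges were −0.25 to 0.14 (*Slc7a1*), −0.52 to 0.010 (*Slc7a3*), −0.087 to 0.50 (*Slc7a5*), −0.12 to 0.28 (*Slc3a2*), −0.29 to 0.056 (*Slc1a5*) and −0.62 to 0.43 (*Slc38a1*). At 72 h they were −0.13 to 0.30 (*Slc1a4*), −0.021 to 0.70 (*Slc38a1*), −0.28 to 0.12 (*Slc1a3*), −0.43 to 0.18 (*Slc6a15*) and −0.18 to 0.46 (*Slc6a6*), and at 0 h −0.34 to 0.28 (*Slc38a2*). For the response at 72 h they were −0.013 to 0.54 (*Slc7a1*), −0.59 to 0.050 (*Slc7a5*), −0.40 to 0.029 (*Slc1a4*), −0.36 to 0.27 (*Slc1a5*), −0.45 to 0.27 (*Slc38a1*) and −0.72 to 0.20 (*Slc6a9*), and at 24 h −0.46 to 0.075 (*Slc7a3*). Others were −0.65 to 0.16 (*Cebpg*) and −0.44 to 0.28 (*Eif2ak4*) in DKO at 72 h, and −0.18 to 0.33 (*Slc38a3*) and −0.29 to 0.14 (*Slc7a4*) in wild type at 144 h.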
